A study of Mus musculus with 14 samples.

Results

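The 9 genes described here code for kidney carriers of organic anions and cations, and they were found by gene name in the deposited expression table: Slc22a2, Slc22a6, Slc22a7, Slc22a8, Slc22a12, Slc22a13, Slco1a1, Slco1a6 and Slc47a1. They are 9 of 22007 gene IDs in that table, and all 9 were among the 12251 genes tested. RNA of microdissected kidney cortex was sequenced as 51-base single-end reads from C57BL/6 mice of 2 genotypes on 2 diets. WT were wild-type mice on regular chow, which is sufficient in vitamin A (n = 3). TRACK mice carried the GGT-HIF1A_M3 transgene and ate the same chow (n = 4). WT-VAD (n = 3) and TRACK-VAD (n = 4) were wild-type and transgenic mice on a diet deficient in vitamin A. The assigned diet started 2 weeks after weaning and lasted until harvest after 24 weeks; the labels used here give no sex. TRACK mice express a constitutively active HIF1A, a subunit of the transcription factor that responds to low oxygen, from the gamma-glutamyl transferase promoter, which is active in the proximal tubule.

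Proximal tubule cells clear drugs, toxins, urate and hormone conjugates by vectorial transport. At the basolateral face, organic anion transporters take up anions in exchange for dicarboxylates that sodium-coupled carriers and metabolism supply, and an organic cation transporter takes up cations along the membrane potential. At the apical face, MATE1 exchanges cations for protons, efflux pumps and phosphate-type transporters release anions, and URAT1 returns urate from the lumen. Several of these genes depend on the hepatocyte nuclear factor HNF4A, and several differ between male and female mice.

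The measured value is FPKM, reads scaled for transcript length and library size by the authors, divided here by a between-library factor (0.897 to 1.18) and called scaled FPKM. Because FPKM is per length, levels can be set beside each other between genes. Differences are of log2(scaled FPKM + 1), tested with limma over all genes, and the word called means a p of at most 0.05 after Benjamini-Hochberg adjustment. FPKM are not counts, so the absolute depth is unknown; relative depth ran from 0.817 to 1.29 between libraries. In the authors' deposited table the mean normalized count of the 9 genes ran from 1471 for Slc22a13 to 46767 for Slc22a12. All 12 proximal tubule markers (among them Lrp2, Slc34a1 and Aqp1) were above 0 in every library. So were the markers of every other cell type looked at, so being above 0 does not identify the tissue. TRACK-VAD libraries 1 and 2 stood apart, with a summed injury-marker level of 178 and 440 scaled FPKM against 31.2 and 61.2 in libraries 3 and 4. Within TRACK-VAD the lowest correlation of a library with another was 0.957 to 0.975, against 0.988 to 0.992 within the other groups. Lane label 6 belonged to the WT-VAD libraries and TRACK-VAD 4, and lane label 5 to every other library.

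Promoter windows are shown for both basolateral anion exchangers and for the urate carrier, 3 genes of chromosome 19 that were lower in TRACK, for the cation carrier Slc22a2, which was not called, and for Slco1a1, which holds a searched motif. Each window runs from 250 bases before to 50 bases after a RefSeq start site on GRCm38.p6, printed 5′ to 3′ on the gene's strand; capitals mark AGGTCA, a hexamer bound by nuclear receptors, or its reverse complement. The windows are chr19:8617746-8618045 (plus strand) for Slc22a6, chr19:8592932-8593231 (plus) for Slc22a8, chr19:6543021-6543320 (minus) for Slc22a12, chr17:12583939-12584238 (plus) for Slc22a2 and chr6:141946913-141947212 (minus) for Slco1a1.
Slc22a6: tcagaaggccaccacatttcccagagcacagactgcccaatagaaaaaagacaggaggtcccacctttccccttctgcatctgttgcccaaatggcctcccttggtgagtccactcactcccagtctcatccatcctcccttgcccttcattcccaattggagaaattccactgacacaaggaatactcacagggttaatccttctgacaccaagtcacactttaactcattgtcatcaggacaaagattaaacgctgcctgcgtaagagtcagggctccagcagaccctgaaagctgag
Slc22a8: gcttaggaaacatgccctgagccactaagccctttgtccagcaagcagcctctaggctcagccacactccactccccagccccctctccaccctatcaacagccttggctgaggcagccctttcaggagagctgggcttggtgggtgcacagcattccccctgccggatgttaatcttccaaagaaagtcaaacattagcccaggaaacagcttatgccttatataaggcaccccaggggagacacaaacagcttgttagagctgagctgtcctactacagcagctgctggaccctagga
Slc22a12: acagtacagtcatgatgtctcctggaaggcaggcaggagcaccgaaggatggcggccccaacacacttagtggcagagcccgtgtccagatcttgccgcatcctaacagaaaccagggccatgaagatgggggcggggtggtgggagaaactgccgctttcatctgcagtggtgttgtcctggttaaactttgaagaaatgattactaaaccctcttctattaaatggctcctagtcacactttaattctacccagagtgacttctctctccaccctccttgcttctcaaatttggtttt
Slc22a2: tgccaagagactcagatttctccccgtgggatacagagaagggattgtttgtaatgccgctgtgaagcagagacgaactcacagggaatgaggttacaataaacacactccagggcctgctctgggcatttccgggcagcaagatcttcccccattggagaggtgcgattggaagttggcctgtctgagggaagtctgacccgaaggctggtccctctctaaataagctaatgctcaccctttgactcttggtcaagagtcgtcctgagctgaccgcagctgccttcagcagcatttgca
Slco1a1: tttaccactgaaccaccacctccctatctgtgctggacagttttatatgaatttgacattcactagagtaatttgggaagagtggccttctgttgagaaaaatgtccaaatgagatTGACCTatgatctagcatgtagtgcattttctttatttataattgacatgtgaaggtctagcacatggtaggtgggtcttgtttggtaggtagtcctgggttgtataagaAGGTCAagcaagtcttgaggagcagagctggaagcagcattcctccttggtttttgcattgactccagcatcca

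Of the 9 genes, 7 had a window in the RefSeq table; Slc22a7 and Slc47a1 had none. Searched on both strands, the HNF4 motif CAAAGTCCA was in 0 of these 7 windows (0.475% of all 32851 windows), the HIF core ACGTG in 0 (19.6%) and the STAT motif TTCNNNGAA in 0 (8.3%). The nuclear receptor hexamer AGGTCA, found in 16.3% of all windows, was in 1 of the 7, that of Slco1a1, where it lay 134 and 24 bases before the start site. The RefSeq start site lay 1928 bases inside the deposited locus for Slc22a8 and 22372 bases inside it for Slco1a6. A match describes these letters in this window and is not evidence of binding.

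In wild-type cortex on chow the urate carrier gene was the most abundant of the 9 and the nicotinate and urate carrier gene the least. Slc22a12 averaged 1485 scaled FPKM, rank 46 of 12251 genes tested. Next came Slc22a6 at 431, then Slc22a8 at 276 and Slc47a1 at 273, whose WT libraries overlapped in range. Slc22a2 (178), Slco1a1 (149) and Slco1a6 (141) followed, each overlapping its neighbour in this order. Slc22a7 (98.3) and Slc22a13 (25.6, rank 3320) had lower means, each without overlap with the gene next above in this order. In WT 1, however, Slc22a7 (118) was above Slco1a1 (106).

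The order changed in the transgenic groups, where several uptake genes came down to the level of the others. In TRACK, Slc22a12 still stood above all at 867 scaled FPKM, but Slc22a6 (165), Slc22a2 (163) and Slc47a1 (156) lay within overlapping ranges, although Slc22a6 was far above Slc22a2 in WT. Slc22a8 (98.9) overlapped Slco1a1 (94.9) in TRACK. In TRACK-VAD the 7 genes at ranks 2 to 8, from Slc47a1 to Slc22a8, formed a chain in which neighbours overlapped.

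**Figure D1:**
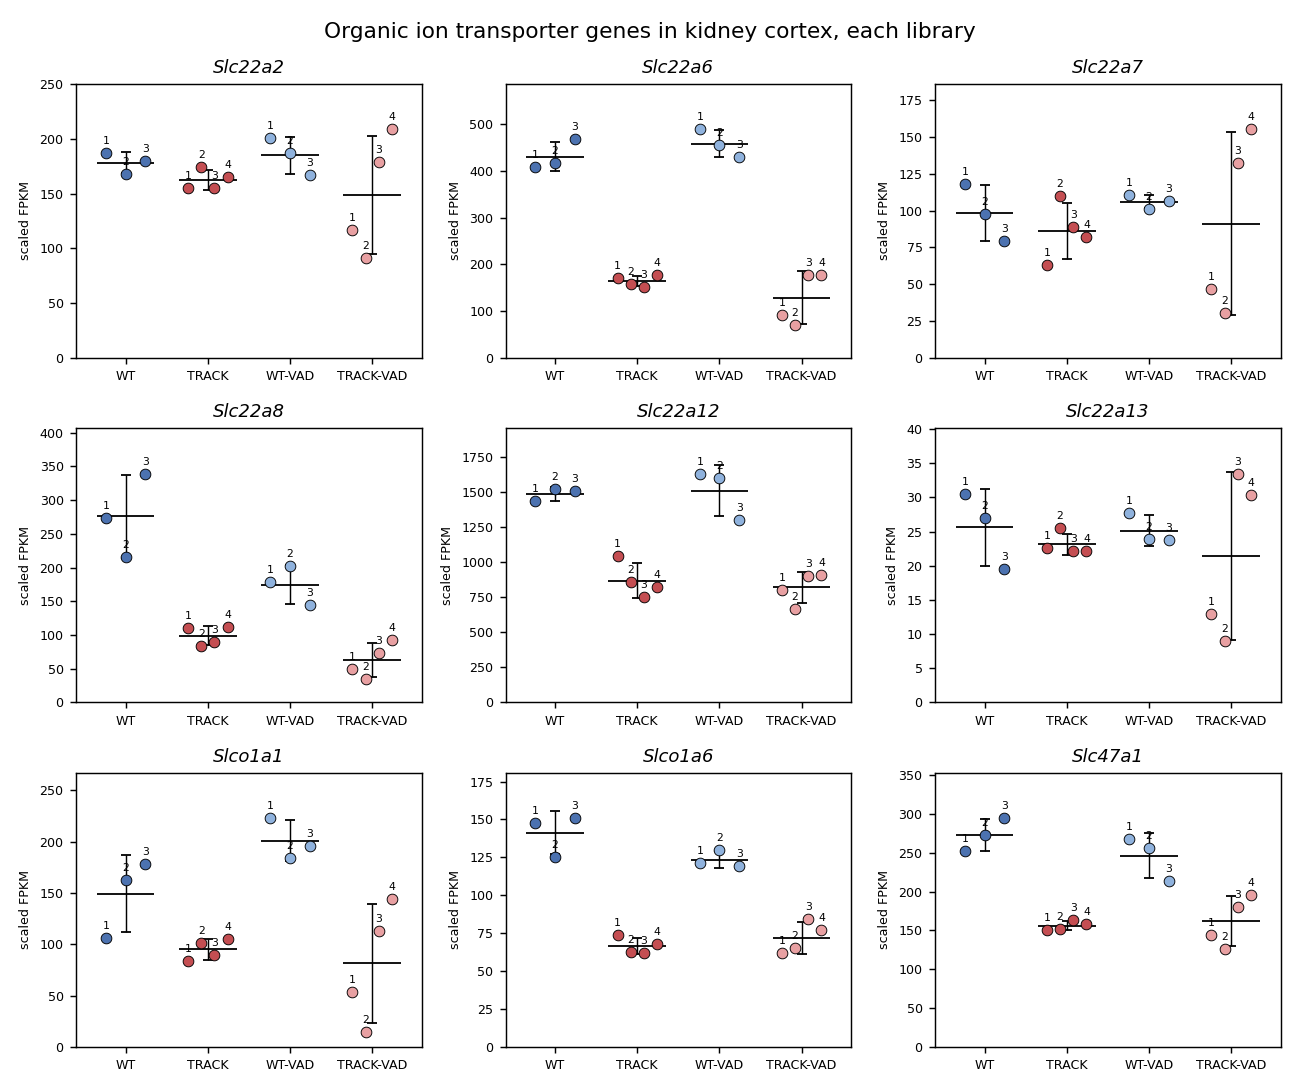
Scaled FPKM (vertical axis, linear, from 0) of the 9 genes in each of the 14 libraries, by group; points carry the replicate number, horizontal lines are group means and bars 1 SD. Slc22a6, Slc22a8, Slc22a12, Slco1a1, Slco1a6 and Slc47a1 have no overlap between TRACK and WT or between TRACK-VAD and WT-VAD. For Slco1a1 on chow the gap is narrow (TRACK highest 105, WT lowest 106 scaled FPKM). TRACK-VAD libraries 1 and 2 lie below 3 and 4 in every panel. The share of all genes without overlap, or with this order of libraries, is not given. Neither trait is thus shown to be particular to these genes, here or in the text.

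The comparison of TRACK with WT asks what active HIF1A is associated with on a sufficient diet. There, 5 of the 9 genes were called, all lower in TRACK; over all genes tested 8.2% were called lower. The lower genes were the basolateral anion exchangers Slc22a6 and Slc22a8, the apical carriers Slc22a12 and Slc47a1, and Slco1a6. The median difference of the 9 was -0.78, against 0.0067 over all genes. All 7 libraries of this comparison share a lane label, and each replicate left out in turn gave 5 called genes. In bulk tissue, fewer cells of a type and less RNA per cell cannot be told apart.

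Markers of other cells and of injured tubule moved beside these genes. In TRACK 4 of 5 immune markers, 2 of 3 endothelial, 1 of 3 fibroblast and 2 of 4 injured-tubule markers were higher, and on the deficient diet 5, 2, 1 and 4 of them. Over all 12251 genes tested, 1082 were called higher in TRACK and 1380 in TRACK-VAD, and 1005 (8.2%) and 1327 (10.8%) were called lower. These counts apply to the gene lists below as well. None of the 4 thick limb and distal tubule and 4 collecting duct markers was called in either transgene comparison, and of 3 podocyte markers 1 was called, higher on the deficient diet. Summed immune markers ran from 12.7 to 14.5 scaled FPKM in WT and from 28.8 to 31.1 in TRACK, and summed injury markers from 4.77 to 5.62 and from 34.5 to 69.9. No marker of any list was at 0 in a library. Their part in the transporter differences was not tested.

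Among basolateral anion carriers, Slc22a6 (OAT1, ENSMUSG00000024650, chr19:8617996-8628299, plus strand, GRCm38 as in the deposited loci) takes up para-aminohippurate-like anions. It was at 409, 416 and 467 scaled FPKM in the WT libraries and at 170, 158, 153 and 177 in TRACK. Every TRACK library was thus below every WT library, at a mean of 38.2% of WT. The difference was -1.38 ± 0.26 (SE; limma adjusted p = 0.00328).

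Slc22a8 (OAT3, ENSMUSG00000063796, chr19:8591254-8611834, plus strand), which takes up bulkier anions, lies 6161 bases from Slc22a6 in the same orientation. Its WT libraries were at 273, 216 and 339 scaled FPKM and its TRACK libraries at 111, 83.3, 89.8 and 112. The groups did not overlap, and WT spread more widely than TRACK (SD 61.5 against 14.4). The Slc22a6 to Slc22a8 ratio was 1.60 ± 0.289 (SD, n = 3) in WT and 1.68 ± 0.160 (n = 4) in TRACK, so the neighbouring genes were lower by a like factor.

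Slc22a7 (OAT2, ENSMUSG00000067144, chr17:46432185-46438477, minus strand), a further organic anion carrier, was not called. Its values were 118, 97.6 and 79.6 scaled FPKM in WT and 63.3, 110.0, 89.0 and 82.4 in TRACK. The groups overlapped, and the interval of the log2 difference, -1.14 to 0.75, leaves room for changes in either direction. That interval uses the spread shared over all groups. A fit of these 2 groups alone gave -0.20 ± 0.18, also not called (limma adjusted p = 0.442).

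The basolateral cation carrier Slc22a2 (OCT2, ENSMUSG00000040966, chr17:12584189-12628465, plus strand) was at 187, 168 and 179 scaled FPKM in WT and at 155, 174, 155 and 165 in TRACK. Of the TRACK libraries 3 lay below all WT libraries and 1 within them. The difference of -0.13 ± 0.21 was not called (limma adjusted p = 0.703), with a 95% interval of -0.59 to 0.32, which lies above the point estimates of Slc22a6 and Slc22a8. A fit of these 2 groups alone gave -0.14 ± 0.067, also not called (limma adjusted p = 0.156).

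At the apical face, the proton-coupled cation exchanger Slc47a1 (MATE1, ENSMUSG00000010122, chr11:61343401-61378345, minus strand) was at 253, 273 and 294 scaled FPKM in WT and at 151, 152, 163 and 158 in TRACK. The TRACK libraries were tightly grouped and all below WT. The difference was -0.80 ± 0.13 (limma adjusted p = 0.00152).

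Slc22a12 (URAT1, ENSMUSG00000061742, chr19:6535845-6543019, minus strand), which reabsorbs urate, was at 1431, 1519 and 1504 scaled FPKM in WT. In TRACK it was at 1040.3, 857, 747 and 825, below every WT library. The difference was -0.78 ± 0.13 (limma adjusted p = 0.00169), or 58.4% of the WT mean. Slc22a13 (OAT10, ENSMUSG00000074028, chr9:119193002-119209105, minus strand), an apical carrier of nicotinate and urate, was at 30.5, 26.99 and 19.5 in WT and at 22.6, 25.5, 22.2 and 22.2 in TRACK. All its TRACK libraries lay within the WT range, and it was not called.

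Slco1a1 codes for an organic anion transporting polypeptide that carries steroid conjugates and other amphipathic anions in mouse, and Slco1a6 for a paralogue; their loci on chromosome 6 are 138798 bases apart, and reads of such close paralogues may have been divided between them. Slco1a6 (ENSMUSG00000079262, chr6:142085761-142208521, minus strand) was at 148, 125 and 151 scaled FPKM in WT and at 73.8, 62.8, 62.0 and 67.6 in TRACK. Its difference of -1.07 ± 0.11 was the most precise of the 9 (limma adjusted p = 3.4e-05). Slco1a1 (ENSMUSG00000041698, chr6:141907282-141946962, minus strand) was at 106, 163 and 178 in WT and at 83.7, 101, 89.4 and 105 in TRACK. Every TRACK library was below every WT library, but the highest TRACK library was close to the lowest WT one. With a spread shared over all groups, the difference of -0.62 ± 0.55 was not called (limma adjusted p = 0.460), whereas a fit of these 2 groups alone gave an adjusted p of 0.0245 (range over its alternatives 0.0245 to 0.692).

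**Figure D2:**
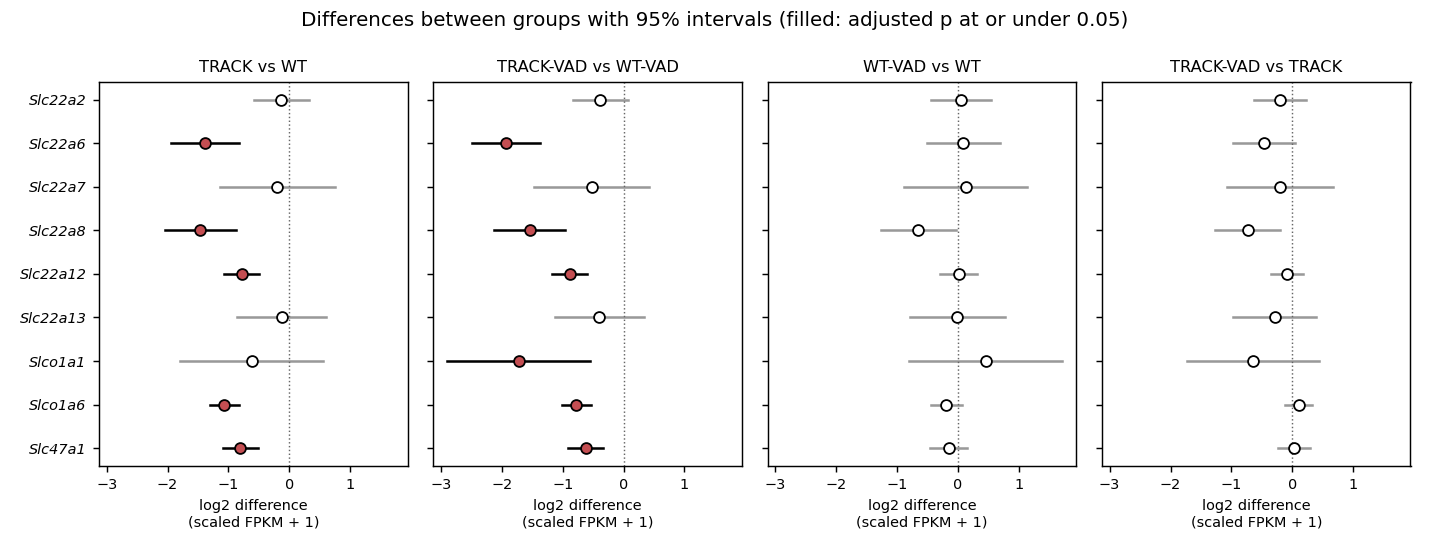
Log2 difference of scaled FPKM + 1 (horizontal axis) of each gene in 4 comparisons, with 95% intervals from limma; filled points have an adjusted p at or under 0.05. Filled points occur in both transgene comparisons, at 5 and 6 genes, all below 0, and at 0 genes in the diet comparisons.

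On the deficient diet the transgene comparison, TRACK-VAD with WT-VAD, gave lower values for 6 of the 9 genes, against 10.8% of all genes called lower. These were the 5 genes called on chow and Slco1a1. The median difference of the 9 was -0.78, against -0.0056 over all genes. With lane as a term limma called 0 of the 9, and 221 of all 12251 genes, 55 of them lower. TRACK-VAD 4 was then the only transgenic library that informed the contrast within lane 6. That library lay below all 3 WT-VAD libraries of its lane for the same 6 genes and above all of them for Slc22a2, Slc22a7 and Slc22a13; over all genes tested it lay below for 30.3% and above for 30.4%. These positions come from the same library as the lane term and are no check beyond it.

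Slc22a6 was at 489, 455 and 430.5 scaled FPKM in WT-VAD and at 91.2, 69.3, 178 and 177 in TRACK-VAD. All 4 transgenic libraries were below WT-VAD, libraries 1 and 2 furthest. The difference was -1.94 ± 0.26 (limma adjusted p = 0.000467), and -1.36 without TRACK-VAD 1 and 2. With lane as a term it was -1.37 (adjusted p = 0.0760), the range over all its alternatives being 2.52e-06 to 0.0760.

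Slc22a8 was at 178, 202 and 144 scaled FPKM in WT-VAD and at 49.5, 34.9, 73.5 and 92.9 in TRACK-VAD, again without overlap. Its difference was -1.54 ± 0.27 (limma adjusted p = 0.00243). Leaving out TRACK-VAD 1 and 2 gave -1.06 (adjusted p = 0.00578), and lane as a term -0.89 (adjusted p = 0.272).

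Slc22a12 was at 1627, 1597 and 1298 scaled FPKM in WT-VAD and at 800.2, 668, 899 and 906 in TRACK-VAD. The groups were apart, and libraries 1 and 2 of TRACK-VAD were nearer to 3 and 4 than for the basolateral exchangers. Slco1a6 was at 121, 130 and 119 in WT-VAD and at 62.0, 65.0, 84.6 and 76.8 in TRACK-VAD. Slc47a1 was at 268, 257 and 214 in WT-VAD and at 144, 126, 181 and 196 in TRACK-VAD. These genes differed by -0.88 ± 0.13, -0.78 ± 0.11 and -0.62 ± 0.13 in that order, with limma adjusted p of 0.000973, 0.000673 and 0.00746. The Slc47a1 difference was -0.38 without TRACK-VAD 1 and 2 (adjusted p = 0.0305), -0.32 with lane as a term (adjusted p = 0.472) and -0.41 without scaling (adjusted p = 0.0116). When only these 2 groups were fitted it was still -0.62, at an adjusted p of 0.0721.

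The Slco1a1 difference was smaller without TRACK-VAD 2, its lowest library, and without TRACK-VAD 1 and 2 together. The gene was at 223, 184 and 196 scaled FPKM in WT-VAD and at 53.3, 14.5, 113 and 144 in TRACK-VAD, where the highest library was 9.97 times the lowest. The difference of -1.72 ± 0.55 was called (limma adjusted p = 0.0385), but it was -0.65 without TRACK-VAD 1 and 2 (adjusted p = 0.0515) and -0.47 with lane as a term (adjusted p = 0.833). Without TRACK-VAD 2 alone it was -1.06 and still called. Without TRACK-VAD 1 alone, or without any single WT-VAD library, it stayed between -1.64 and -1.78 with an adjusted p of 0.0818 to 0.104. In the authors' deposited table Slco1a1 differed by -0.81 with an adjusted p of 0.0462.

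The other 3 genes were not called on the deficient diet, and their TRACK-VAD libraries split. Slc22a2 was at 117, 91.4, 179 and 209 scaled FPKM in TRACK-VAD 1 to 4, against 201, 187 and 167 in WT-VAD. Slc22a7 was at 46.5, 30.1, 133 and 155, against 110.4, 101 and 107. Slc22a13 was at 12.9, 8.99, 33.4 and 30.4, against 27.8, 23.9 and 23.8. For each of them libraries 1 and 2 were below all WT-VAD libraries, and for Slc22a7 and Slc22a13 libraries 3 and 4 were above all of them. Slc22a2 was called lower without TRACK-VAD 4 (difference -0.57, limma adjusted p = 0.0335).

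The split ran through all 9 genes at unequal size. The share of all genes with this order of libraries was not counted, so the split is not shown to be particular to these 9. The mean of TRACK-VAD 1 and 2 over that of 3 and 4 was 0.264 for Slco1a1, 0.266 for Slc22a7, 0.344 for Slc22a13, 0.452 for Slc22a6, 0.507 for Slc22a8 and 0.538 for Slc22a2. It was nearer to 1 for Slc47a1 (0.718), Slco1a6 (0.787) and Slc22a12 (0.813). Beside it, 11 of the 12 proximal tubule markers were lower in libraries 1 and 2 than in 3 and 4, the exception being Slc7a9 (102 and 99.5 against 83.9 and 85.3 scaled FPKM). Kap made up 94.4% to 94.7% of the summed markers. Without it the sum of the other 11 was 2162 and 1487 in libraries 1 and 2, and 3476 and 3391 in libraries 3 and 4. The injury marker Havcr1 was at 142 and 301 in libraries 1 and 2, and at 18.1 and 46.0 in 3 and 4. Summed immune markers ran from 34.0 to 80.3 in TRACK-VAD, against 13.0 to 19.4 in WT-VAD, with library 2 highest. The part of these cell-type and injury levels in the split was not tested.

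**Figure D3:**
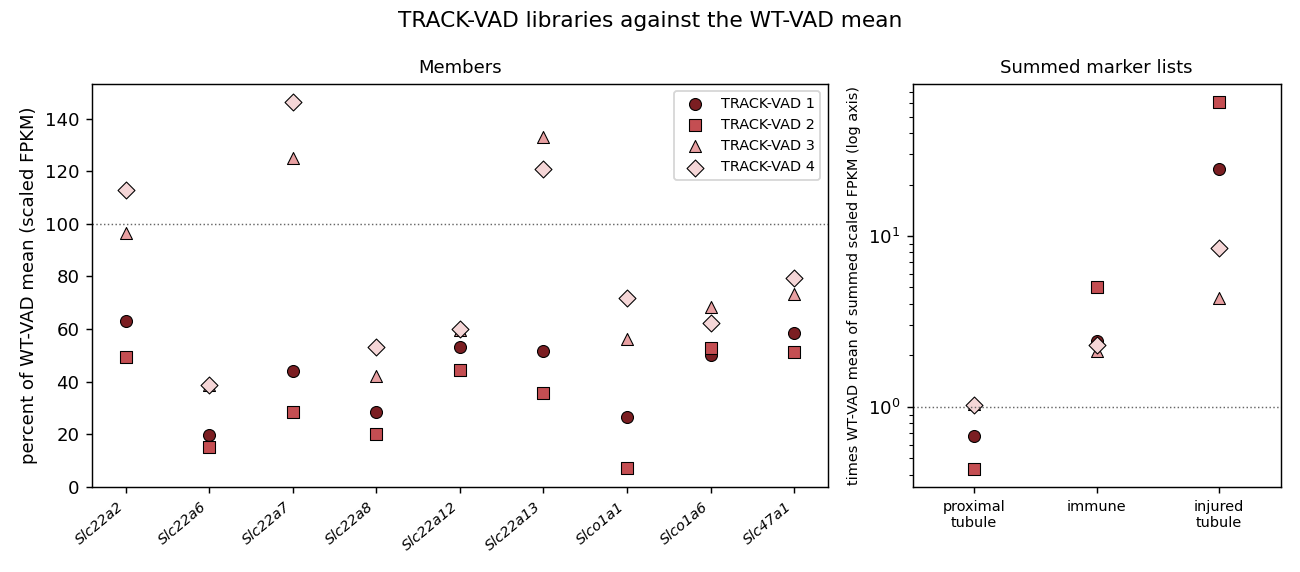
Left, scaled FPKM of each gene in the 4 TRACK-VAD libraries as percent of the WT-VAD mean; right, summed marker lists in the same libraries as multiples of the WT-VAD mean on a log axis. Libraries 1 and 2 are below 3 and 4 for all 9 genes and have the highest summed injury markers, 178 and 440 scaled FPKM. The share of all genes with this order was not counted. The proximal tubule sum is mostly Kap.

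Set beside the mean of the proximal tubule markers, Slc22a6 and Slc22a8 differed more between genotypes and Slc22a2 and Slc22a13 less. Single markers spread widely around that mean, on chow from -0.09 for Kap and -0.12 for Cubn to -1.45 for Slc34a1, which is close to Slc22a6 and Slc22a8. On the deficient diet they ran from -0.30 for Slc5a2 to -1.36 for Slc34a1, and only Slc22a6, Slc22a8 and Slco1a1 of the 9 lay below all of them. On both diets Slc22a2 and Slc22a13 lay within the range of the markers. On chow 3 of the 12 markers (Slc34a1, Aqp1 and Slc7a9) fell in TRACK, with a list median of -0.42, and 4 of 12 fell on the deficient diet, with a median of -0.57. The mean log2 level of all 12 markers was 0.60 lower on chow and 0.70 lower on the deficient diet. Taken relative to that mean, Slc22a6 differed by -0.78 on chow and -1.23 on the deficient diet, and Slc22a8 by -0.86 and -0.84. Slc22a12 stood at -0.18 on both diets. Slc22a2 differed by 0.47 and 0.32 and Slc22a13 by 0.48 and 0.30, both above the mean of the markers. Relative to the markers Slc47a1 stood at -0.20 and 0.08, Slco1a6 at -0.47 and -0.08, Slc22a7 at 0.41 and 0.18, and Slco1a1 at -0.014 and -1.02. These are descriptions of group means with no test; 9 of the 12 markers on chow were themselves not called.

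The diet comparisons address whether vitamin A deficiency goes with the level of these genes in each genotype. WT-VAD against WT gave 0 of 9 called (0.514% of all genes in either direction) and TRACK-VAD against TRACK 0 of 9 (0.155% of all genes). At an unadjusted p under 0.05, 1 of the 9 passed in each, Slc22a8 both times. Of all 12251 genes tested, 1245 passed in WT-VAD against WT and 1288 in TRACK-VAD against TRACK. A count of 1 in 9 is near that share. In WT all chow libraries of Slc22a8 (216 to 339 scaled FPKM) lay above all WT-VAD libraries (144 to 202), a difference of -0.65 ± 0.29 with a limma adjusted p of 0.458. In TRACK the ranges overlapped (83.3 to 112 on chow, 34.9 to 92.9 on the deficient diet), and the difference was -0.73 ± 0.25 with an adjusted p of 0.343. It was -0.24 without TRACK-VAD 1 and 2, and -0.49 without TRACK-VAD 2 alone. The Slc22a6 to Slc22a8 ratio was 2.66 ± 0.372 (SD, n = 3) in WT-VAD, with libraries from 2.26 to 2.99, above all WT libraries (1.38 to 1.93). It was 2.04 ± 0.262 (n = 4) in TRACK-VAD, with libraries from 1.84 to 2.42, which overlapped TRACK (1.54 to 1.90). In wild-type mice diet and lane cannot be told apart, and the authors' deposited tables also held 0 of the 9 at an adjusted p of 0.05 in either diet comparison.

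For the other genes the diet intervals were wide, and they use a spread shared over all groups, which takes in the uneven TRACK-VAD libraries. The SD of Slco1a1 was 37.7 scaled FPKM in WT and 19.7 in WT-VAD, but 58.3 in TRACK-VAD. In WT the 95% interval of Slc22a12 was -0.29 to 0.32 and that of Slc22a6 -0.51 to 0.69, whereas that of Slco1a1 reached from -0.80 to 1.71. Slco1a1 was higher in every WT-VAD library than in every WT library (184 to 223 against 106 to 178 scaled FPKM), without being called (limma adjusted p = 0.879). In the transgenic pair, Slc22a7 had a higher mean on the deficient diet (91.1 against 86.2) but a log2 difference of -0.20, because libraries 1 and 2 were low.

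A test of whether the transgene difference itself depended on diet gave 0 of 9 called, against 1 of 12251 genes (0.00816%). At an unadjusted p under 0.05, 0 of the 9 passed, against 989 of all 12251 genes. The estimates ran from -1.10 ± 0.77 for Slco1a1 to 0.29 ± 0.16 for Slco1a6. That Slco1a1 was called on the deficient diet alone is therefore not shown to be a difference between diets (limma adjusted p = 0.724).

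Partner transporters and scaffolds, a list of 15 genes of which 14 were tested, had 1 member higher and 4 lower in TRACK, and 1 higher and 6 lower in TRACK-VAD. Slc13a3, the basolateral sodium-dicarboxylate carrier that supplies the exchange substrate of OAT1 and OAT3, averaged 471 ± 109 scaled FPKM (SD, n = 3) in WT and 180 ± 14.7 (n = 4) in TRACK. Its difference was -1.36 ± 0.35 (limma adjusted p = 0.0188) on chow and -1.54 ± 0.35 (0.00987) on the deficient diet. There Slc13a3 was at 110, 80.7, 265 and 274 in TRACK-VAD 1 to 4, against 375 to 554 in WT-VAD. Fits with lane as a term or without TRACK-VAD 1 and 2 are not given for list genes. The apical efflux pump gene Abcg2 fell from 508 ± 55.8 to 280 ± 26.0 in TRACK (difference -0.85 ± 0.12). Abcb1b, a P-glycoprotein gene, moved the other way, from 7.67 ± 0.798 to 18.7 ± 1.75 (difference 1.18 ± 0.25). The apical urate exit genes Slc17a1 and Slc17a3 differed by -0.38 and -0.61 on chow, where Slc17a1 was called, and by -0.41 and -0.96 on the deficient diet, where both were. The list median was -0.41 on chow and -0.65 on the deficient diet.

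Of 29 other Slc22 and Slco genes, 20 were tested, and 4 were higher and 3 lower in TRACK, with a median difference of -0.03. On the deficient diet 0 were higher and 6 lower. Slc22a18, an orphan carrier, averaged 416 ± 54.1 scaled FPKM in WT and 171 ± 10.4 in TRACK, a difference of -1.27 ± 0.27 (limma adjusted p = 0.00670). The carnitine carrier Slc22a5 differed by -0.74 and -0.76 on chow and on the deficient diet, and both passed. Slc22a26 (1.18 ± 0.27) and Slco1a4 (1.15 ± 0.32) rose in TRACK, from 7.90 and 2.54 to 18.9 and 6.72 scaled FPKM. Both have close paralogues among which reads may have been divided. Slco1a4 was also the only gene of this list called in a diet comparison, at 1.60 ± 1.11 (SD, n = 4) in TRACK-VAD, a difference of -1.67 ± 0.30 from TRACK (limma adjusted p = 0.0472). Slc22a30 and Slc22a28 were called lower on the deficient diet (-1.24 and -0.95). In TRACK-VAD 1 to 4 Slc22a30 was at 16.9, 8.67, 39.9 and 41.7, against 50.1 to 57.7 in WT-VAD. Slc22a28 was at 13.0, 7.75, 26.8 and 25.1, against 30.8 to 33.3.

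**Figure D4:**
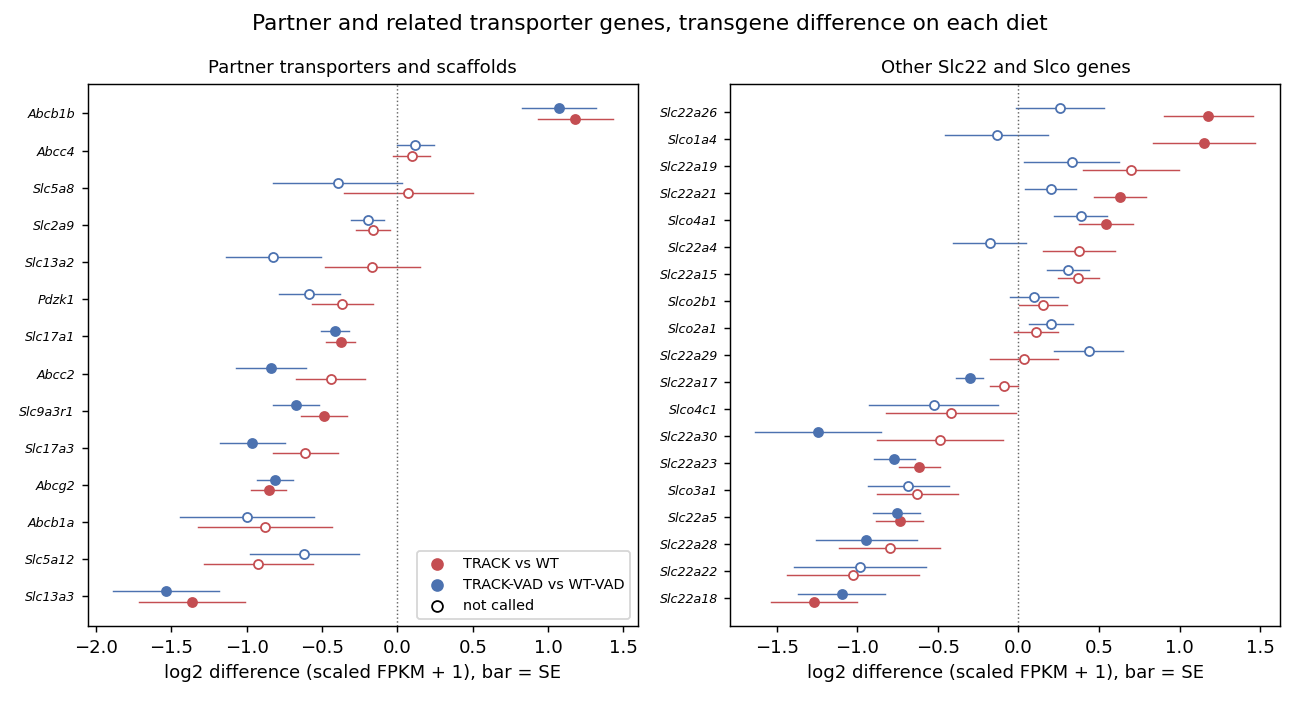
Log2 difference of scaled FPKM + 1 with SE for the 14 tested partner genes (left) and 19 of the 20 tested other Slc22 and Slco genes (right), TRACK against WT and TRACK-VAD against WT-VAD; filled points were called. Slc13a3 lies lowest among the partners (-1.36 and -1.54), and Abcb1b is the only partner called higher (1.18 on chow).

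Of 21 transcription factor and receptor genes with a known part in transporter expression, 19 were tested. In TRACK 2 were higher and 6 lower, and in TRACK-VAD 1 was higher and 3 lower. Hnf4a was left out because libraries were listed at 0. Prlr, the prolactin receptor gene, fell from 2.75 to 1.33 scaled FPKM in TRACK (difference -0.70). The nuclear receptor genes Hnf4g (5.50 to 3.46 scaled FPKM, difference -0.54) and Ppara (50.5 to 30.9, difference -0.69) fell in TRACK. Bcl6, a transcription factor linked in rat to sex-dependent Oat1 and Oat3 expression, averaged 3.42 in WT and 14.3 in TRACK (difference 1.86 ± 0.26, limma adjusted p = 0.00034). It ran from 2.48 to 4.16 in TRACK-VAD and averaged 2.25 in WT-VAD, a difference that was not called; its part in the transporter differences was not tested. TRACK-VAD differed from TRACK by -1.96 ± 0.24 for Bcl6 (limma adjusted p = 0.00434), the only gene of this list called in a diet comparison.

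Since several of the 9 genes are sex-dependent in mouse kidney and no sex is given, genes of the Y chromosome were looked at. Ddx3y (11.3 to 19.7 scaled FPKM), Eif2s3y (18.4 to 36.3), Kdm5d (3.52 to 4.75) and Uty (5.57 to 11.3) were present in all 14 libraries. Of 9 tested genes of the sex list, 1 was higher and 1 lower in TRACK, and 1 higher and 2 lower in TRACK-VAD. The higher gene both times was Slc7a12, which is more abundant in female mouse kidney: it averaged 3.39 in WT, 15.0 in TRACK, 0.822 in WT-VAD and 9.86 in TRACK-VAD. The lower genes were Prlr in TRACK (-0.70) and Uty (-0.49) and Cyp4a14 (-0.98) in TRACK-VAD. The androgen-responsive genes Kap (-0.09 and -0.39) and Cyp7b1 (0.53 and -0.70) were not called on either diet. The part of sex-dependent regulation in the transporter differences was not tested.

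Genes whose deviations over the 14 libraries were nearest to a member's were named by the root-mean-square distance on the log2 scale. For Slc22a6 these were Acsm2 (0.181), Slc25a48 (0.183) and Slc13a3 (0.218), and Slc22a8 was its nearest among the 9 (0.317). For Slc22a8 they were Prodh (0.251), Slc34a1 (0.257) and Fam151a (0.266). Slc22a2 was nearest to Cth (0.0783), Kap (0.0846) and Nceh1 (0.0848), and Slc22a7 to Slc7a13 (0.185), St8sia1 (0.198) and Slco4c1 (0.202). Slc47a1 was nearest to Acads (0.0955), Abcd3 (0.0971) and Plekhb2 (0.108). Slc22a12 was nearest to Fam132a (0.103), Ddt (0.109) and Aldh3a2 (0.109), and Slc22a13 to Mep1a (0.173), Slc23a1 (0.174) and Slco4c1 (0.177). Slco1a1 was nearest to Lpl (0.302), Slc22a30 (0.334) and Slc9a2 (0.414), and Slco1a6 to Isoc2a (0.109), Ddt (0.116) and Mfsd4b5 (0.121). The distance is not scaled to a member's own variation, so distances of different members cannot be set beside each other. The root-mean-square deviation of the member itself was 0.301 for Slc22a2, 0.900 for Slc22a6 and 0.948 for Slco1a1.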

How the data were processed

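Kidney cortex RNA of 14 mice was measured. The authors deposited FPKM per gene, and 6 columns of values matching no library label were not used. Comparison tables deposited by the authors hold, per the file headers, a signal (the mean normalized count of a gene), its log2 fold change with SE, and raw and adjusted p-values. DESeq 1.32 and mm9 are named in the submitters' processing notes; which aligner and FPKM program were used is not stated there. Loci of the table fit GRCm38. Whole reads were not recovered, so limma 3.58.1 (R 4.3.3) was used in place of the count test the design named for counts. The table had 22053 rows for 22007 IDs, and the row with the highest mean was kept per ID. Tested were genes reaching 1 FPKM in 3 or more libraries, except 17 listed at 0 in a library although a library of the same group, and 7 or more in all, reached 5 FPKM. Libraries were scaled by a trimmed mean of their log ratios, trimming 30% by ratio and 5% by level. Tests were two-sided moderated tests with a mean-variance trend on log2(scaled FPKM + 1), with all 14 libraries in a model of 4 group means, adjusted over 12251 genes. The pseudocount understates changes of low genes. The labels speak of separate mice per cohort. On simulated data for TRACK against WT (12251 genes), 67, 67 and 66 genes were changed by 0.5, 1 and 2 (log2). Of these, 41.8%, 92.5% and 93.9% were recovered. The measured comparison called 2087 genes, so recovery there may differ. The 9 genes and all lists were chosen with earlier results of these data known. Named besides the 9 were the 3 nearest genes of each, up to 4 called genes of a list with the greatest differences, and markers or list genes set beside a result. Promoters came from RefSeq. Motifs were searched on both strands. Some list genes and a motif are not reported here. Alternatives were other scalings, pseudocounts (0.1 and 5), filters, a replicate block, a lane term, lane 5 alone, the compared groups alone, and each library left out. Plots used matplotlib 3.10.9 in Python 3.11.15.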

Additional observations from a re-analysis of the deposited data

Results flagged for a closer look

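Slc22a13 in TRACK was marked because 1 library stood far from the other 3: TRACK 2 was highest at 25.5 scaled FPKM, while the other libraries lay close together. Of 18 sets of 4 libraries looked at, 1 was marked in this way, and chance marks about 1 in 20. The WT libraries of Slc22a13 spread more widely than that gap (19.5 to 30.5).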

How the results depend on the processing

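Of 187 alternative values for the called genes, 173 kept direction and call and 14 kept direction but lost the call; of 632 for uncalled ones, 59 changed sign, none of them called. TRACK against WT gave 5 called genes under every alternative but the compared groups alone (6, with Slco1a1). TRACK-VAD against WT-VAD gave 6, but 0 with lane as a term, 4 with the compared groups alone, 5 with no filter (Slco1a1 adjusted p = 0.0654) or omitting TRACK-VAD 1 and 2 (an alternative chosen after seeing the data), and 5 to 7 with a library left out. The replicate block gave 5, 6, 0, 0 and 0 called genes, as without it; replicate numbers did not pair libraries (mean correlation of deviations 0.0546 over 19 same-numbered pairs, -0.0192 over 54 others). Without scaling, the median of all genes moved to 0.16 and 0.18 in the transgene comparisons, and the share of called genes that were higher from 51.8% and 51.0% to 80.3% and 82.7%; Slc22a2 (0.044) and Slc22a13 (0.048) then changed sign in TRACK against WT, and Slc22a13 (0.0066) in WT-VAD against WT. FPKM without counts limit any statement on depth.

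Sign changes with lane as a term were, in TRACK-VAD against WT-VAD, Slc22a2 0.18, Slc22a7 0.55 and Slc22a13 0.27. In WT-VAD against WT they were Slc22a2 -0.69, Slc22a6 -0.67, Slc22a7 -1.30, Slc22a12 -0.20 and Slco1a1 -1.21. In TRACK-VAD against TRACK, Slc47a1 was -0.069, and -0.066 with lane 5 alone. In the interaction they were Slc22a2 0.31, Slc22a6 0.018, Slc22a7 0.74, Slc22a8 0.57, Slc22a12 0.058, Slc22a13 0.39 and Slco1a1 0.15. Omitting TRACK-VAD 1 and 2 gave, in TRACK-VAD against WT-VAD, Slc22a2 0.061, Slc22a7 0.43 and Slc22a13 0.33. In TRACK-VAD against TRACK it gave Slc22a2 0.25, Slc22a6 0.11, Slc22a7 0.76, Slc22a12 0.067, Slc22a13 0.45 and Slco1a1 0.43. In the interaction it gave Slc22a2 0.20, Slc22a6 0.021, Slc22a7 0.63, Slc22a8 0.40, Slc22a12 0.051 and Slc22a13 0.46. What set TRACK-VAD 1 and 2 apart was not tested.

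With each library left out, results that changed sign ranged as follows. In TRACK against WT, Slc22a13 ran from -0.30 to 0.0093. In WT-VAD against WT, Slc22a2 ran from -0.0087 to 0.12, Slc22a7 from -0.016 to 0.26, Slc22a12 from -0.044 to 0.12 and Slc22a13 from -0.19 to 0.12. In TRACK-VAD against TRACK, Slc22a2 ran from -0.39 to 0.0079, Slc22a7 from -0.55 to 0.22, Slc22a12 from -0.15 to 0.0097, Slc22a13 from -0.56 to 0.035, Slco1a1 from -1.06 to 0.016 and Slc47a1 from -0.069 to 0.14. In the interaction, Slc22a7 ran from -0.68 to 0.10, Slc22a8 from -0.30 to 0.16 and Slc22a13 from -0.55 to 0.044.

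Counts over all genes moved by over 1.5 times as follows. TRACK against WT went from 2087 to 3460 (compared groups alone) and 1013 to 1876 (a library left out). TRACK-VAD against WT-VAD went from 2707 to 221 (lane term), 568 (compared groups alone), 1307 (omitting TRACK-VAD 1 and 2) and 1570 to 3454 (a library left out). WT-VAD against WT went from 63 to 40 (no filter), 0 (lane term), 119 (compared groups alone) and 5 to 44. TRACK-VAD against TRACK went from 19 to 10 and 29 (pseudocounts 0.1 and 5), 7 (replicate block), 56 (lane term), 3 (compared groups alone), 37 (lane 5 alone) and 8 to 56. The interaction went from 1 to 0, 3 or 4, and 0 to 7 with a library left out.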
